A study of Caenorhabditis elegans with 21 samples.

Results

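Expression of 8 genes was followed in whole-animal mRNA-seq of *C. elegans*: the 7 *lipl* genes numbered *lipl-1* to *lipl-7*, which encode predicted lysosomal lipases, and *lbp-8*, which encodes a lipid chaperone. They were chosen by name, with earlier results of these data known, and all 8 were found among the 22840 genes of the expression table. The table held 21 libraries of 9 genotypes. Wild type was represented by 3 libraries, as was *pmk-1(-)*, with the null allele *km25*, and *pmk-1(D327E)*, with the allele *miy7* made in the endogenous locus. The *daf-16* single mutants, one with the allele *mgDf50* and one with *m26*, and the 4 double mutants that combine each of these alleles with each *pmk-1* allele had 2 libraries each. The *mgDf50* allele is a deletion and *m26* is a splice-site mutation. All groups were whole animals grown from synchronised L1 larvae (24 h in M9 buffer) for 48 h at 20 °C with OP50 bacteria as food. The labels give the stage as late L4 while the methods of the study give young adults, and transcripts of the 6 yolk protein genes *vit-1* to *vit-6*, which adult hermaphrodites make in the intestine, summed to 8960 to 16045 TPM (transcripts per 1000000). Each genotype is 1 strain by its labels, and the labels print the same strain name for both *D327E* double mutants, so allele and strain history cannot be told apart. The study calls the libraries of a genotype biological replicates, but nothing in the labels says whether they came from separate cultures. The p-values measure only the spread between these libraries.

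Lysosomal acid lipases cut neutral lipids delivered to the lysosome into free fatty acids, and in the worm this takes place mainly in the intestine, the organ that also stores fat. LIPL-4 and the chaperone LBP-8 are known as a pair: fatty acids freed by LIPL-4 are carried by LBP-8 from the lysosome to the nucleus, where they act through the nuclear receptors NHR-49 and NHR-80, and a forced rise of either protein lengthens life. Several *lipl* genes are known to rise on fasting, under control of the activator HLH-30 and the repressor MXL-3, and *lipl-4* is known as a gene that the FOXO factor DAF-16 activates in long-lived animals. PMK-1 is the p38 MAP kinase of innate immunity, and the D327E change makes it resistant to cleavage by the caspase CED-3. The libraries put the question of how these genes stand when PMK-1 is lost or cannot be cleaved, with and without DAF-16.

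The table held TPM, a unit scaled to transcript length and to a fixed total, so depth per library is unknown and levels of different genes can be set side by side. The *daf-16* transcript stood at 6.12 to 7.78 TPM in the *mgDf50* strains, at 55.0 to 61.8 TPM in the *m26* strains and at 41.5 to 47.4 TPM in the strains with intact *daf-16*. The *pmk-1* transcript was 10.7 to 11.8 TPM in *pmk-1(-)* and 14.1 to 15.3 TPM in wild type. It was 12.6 and 12.7 TPM in the *mgDf50* double mutant with *pmk-1(-)* and 11.4 and 13.9 TPM in that with *m26*. Libraries with *pmk-1(D327E)* had 12.7 to 15.6 TPM, which overlaps the libraries with *pmk-1(-)*. The first axis of variation held 52.4% of the variance and spread libraries of 1 genotype apart, from -60.7 to 42.7 in *pmk-1(-)* and from -55.2 to 2.79 in wild type. The second axis held 14.5%, and the 7 libraries that carry *pmk-1(-)* lay there at -25.3 to -11.3, apart from the other 14. Summed intestinal markers (7 of 8 in the table) ranged from 821 to 1729 TPM and 31 sperm protein genes from 1453 to 6708 TPM, with ranges that overlapped between the 3 genotypes with intact *daf-16*. In RNA of whole animals, fewer cells of a type and less RNA per cell cannot be told apart.

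The levels of the family were very uneven. The gene *lipl-5*, a lysosomal lipase of the intestine, made up 72.3 to 95.2% of the summed TPM of the 7 *lipl* genes in each library, with a range of 82.1 to 322 TPM. The gene *lipl-7* came next among the lipases at 11.11 to 15.4 TPM, and *lipl-1* and *lipl-2* ranged from 0.60 to 12.8 TPM and from 1.76 to 7.11 TPM. The chaperone gene *lbp-8* ranged from 4.16 to 16.9 TPM. The other 3 lipase genes, *lipl-3*, *lipl-4* and *lipl-6*, stayed under 1 TPM in every library. A filter on a mean of 1 TPM left 12843 genes to test, 5 of the 8 among them, which are *lipl-1*, *lipl-2*, *lipl-5*, *lipl-7* and *lbp-8*. By the WBcel235 annotation, 7 of the 8 genes lie on chromosome V and *lipl-7* on chromosome IV.

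**Figure D1:**
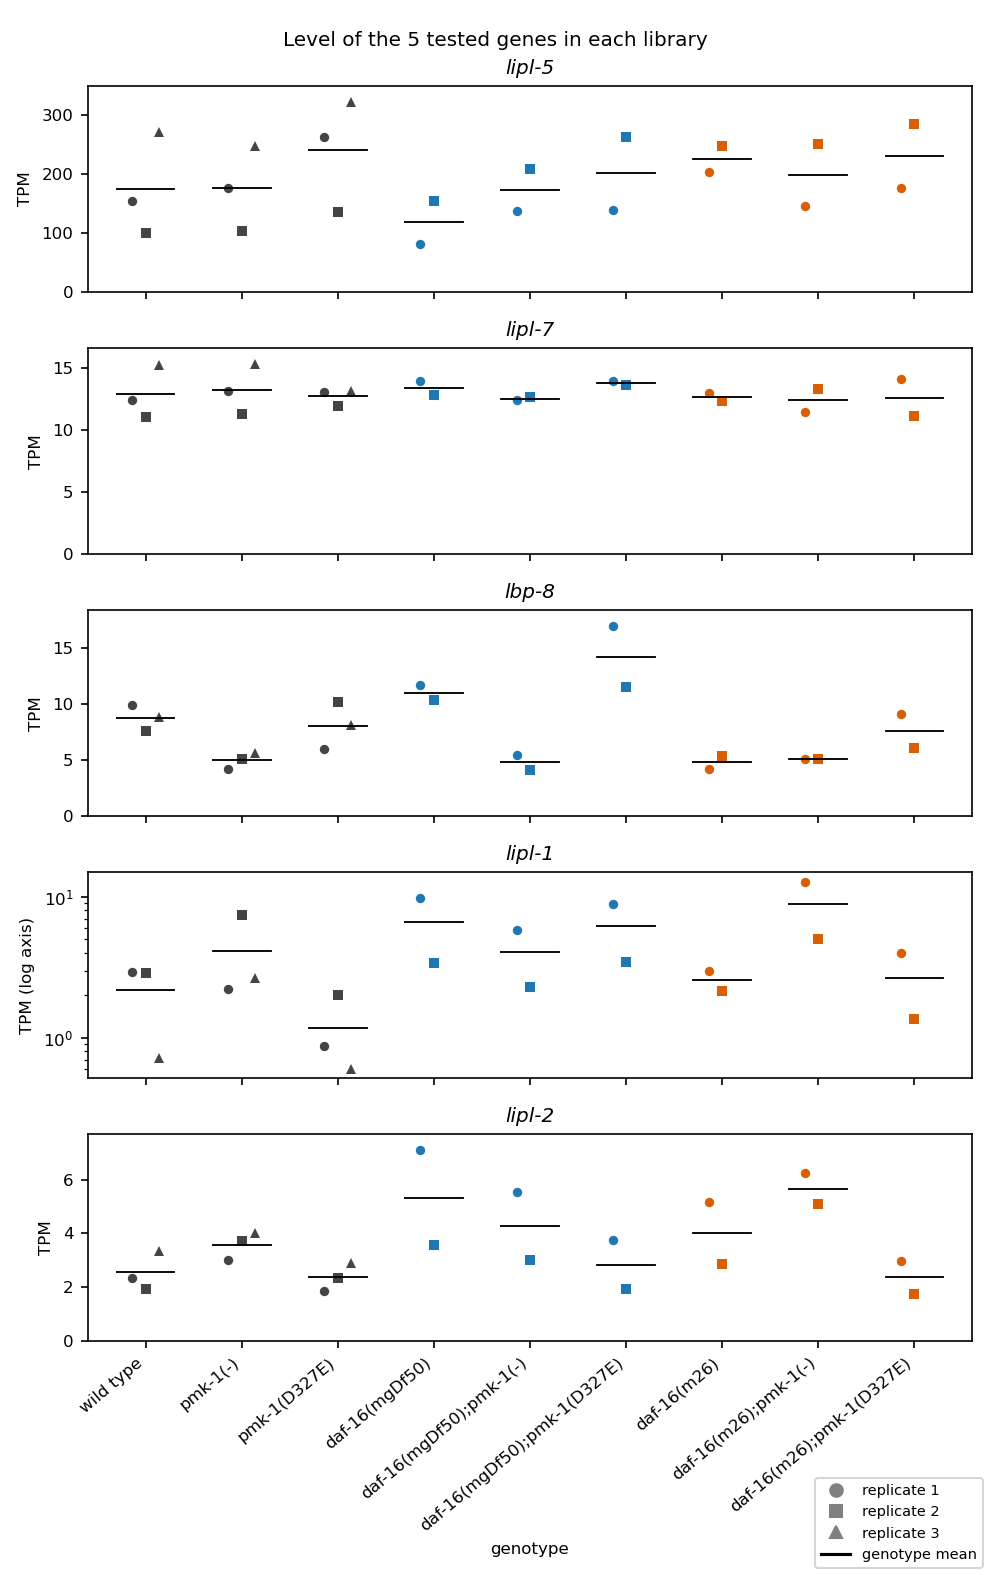
Level of the 5 tested genes in each library, in TPM on the vertical axis (a log axis for *lipl-1*), with the 9 genotypes on the horizontal axis, a symbol for each replicate number and a line at each genotype mean. The *lbp-8* points of the 7 libraries with *pmk-1(-)* sit at 4.16 to 5.62 TPM, below all 7 libraries with *pmk-1(D327E)*, while *lipl-5* points of 1 genotype lie far apart.

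The clearest difference between genotypes was in *lbp-8*, whose transcript was lower wherever PMK-1 was lost than where it could not be cleaved. Its libraries read 9.93, 7.57 and 8.79 TPM in wild type, 4.21, 5.07 and 5.62 TPM in *pmk-1(-)*, and 5.97, 10.1 and 8.09 TPM in *pmk-1(D327E)*. The *mgDf50* series read 11.69 and 10.3 TPM in the single mutant, 5.45 and 4.16 TPM with *pmk-1(-)*, and 16.9 and 11.5 TPM with *pmk-1(D327E)*. The *m26* series read 4.21 and 5.403 TPM in the single mutant, 5.11 and 5.06 TPM with *pmk-1(-)*, and 9.14 and 6.07 TPM with *pmk-1(D327E)*. All 7 libraries that carry *pmk-1(-)* were at or below 5.62 TPM and all 7 that carry *pmk-1(D327E)* at or above 5.97 TPM, whatever the state of *daf-16*. Of all genes tested, 1.38% had no overlap between these 14 libraries, and 1.1% had none with the *D327E* libraries higher.

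Averaged over the 3 backgrounds, *lbp-8* was 0.81 higher on the log2(TPM + 1) scale in *pmk-1(D327E)* than in *pmk-1(-)* (SE 0.13, 95% interval 0.52 to 1.098, adjusted p = 0.0023 by limma with Benjamini-Hochberg adjustment over all genes tested), a 1.75-fold difference on that scale. It was 1 of 5 tested members past the threshold of 0.1, and 2.6% of all genes tested passed (1.88% with *D327E* higher). This average was chosen after the values had been seen. It kept its call in every alternative setting and without any 1 of the 21 libraries, with adjusted p-values from 0.00081 to 0.015. Against the controls without a *pmk-1* mutation, the averaged *lbp-8* level was 0.56 lower in *pmk-1(-)* (SE 0.13, interval -0.85 to -0.28, limma adjusted p = 0.0584), where 1 of 5 members and 1.65% of all genes tested were called. That call was lost in 7 of the 21 settings that each left out 1 library: wild type replicate 1 or 3, *daf-16(mgDf50)* replicate 1, the second *mgDf50* library with *pmk-1(-)*, *daf-16(m26)* replicate 2 and either *m26* library with *pmk-1(-)*, with adjusted p from 0.114 to 0.229. The averaged difference of *pmk-1(D327E)* from the same controls was 0.25 (SE 0.13, interval -0.04 to 0.53, limma adjusted p = 1.00), where 0 of 5 members and 0.296% of all genes tested passed and 1 member, *lipl-2*, had an unadjusted p under 0.05. Over the 3 averaged comparisons 4 of 15 tests had an unadjusted p under 0.05, against 5.23% over all genes.

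For *lbp-8*, the largest difference between the *pmk-1* mutants within a single background was that between the *mgDf50* double mutants. There *lbp-8* was 1.37 higher on the log2(TPM + 1) scale with *pmk-1(D327E)* than with *pmk-1(-)* (SE 0.25, interval 0.85 to 1.90, limma adjusted p = 0.00943), or 2.59-fold. It was the only call among the 5 members in that comparison, where 1.26% of all genes tested were called. The call was lost without the second library with *pmk-1(-)* (1.21, adjusted p = 0.183), without the first library with *pmk-1(D327E)* (1.11, adjusted p = 0.198) and in a fit of these genotypes alone (adjusted p = 0.267). In the background with intact *daf-16* the same difference was 0.58 (SE 0.20, limma adjusted p = 0.484), and in *m26* it was 0.48 (SE 0.25, limma adjusted p = 1.00). In both, 0 of 5 members passed, against 1.08% and 0.747% of all genes tested, and 2 members in each had an unadjusted p under 0.05. Over the 3 backgrounds this makes 5 of 15 tests, against 4.19% over all genes. The *lbp-8* libraries did not overlap in any of the 3 backgrounds, as was the case for 6.28%, 22.5% and 27% of all genes in the backgrounds of intact *daf-16*, *mgDf50* and *m26*.

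The second axis of variation, on which the *pmk-1(-)* libraries stood apart, moved with *lbp-8* over the 21 libraries (Pearson's r = 0.69, Spearman's rho = 0.68, permutation p adjusted over 25 relations 0.00808 and 0.0181). Without the 2 libraries farthest from the median of the axis r was 0.66, and between deviations from the genotype means it was 0.14. All libraries enter that axis, and libraries of 1 genotype are not independent of each other. Summed intestinal markers were 821 to 1469 TPM in *pmk-1(-)*, 920 to 1035 TPM in *pmk-1(D327E)* and 822 to 1026 TPM in wild type. In the *mgDf50* double mutants they were 867 to 1392 TPM with *pmk-1(-)* and 1076 to 1467 TPM with *pmk-1(D327E)*. In those with *m26* they were 871 to 1107 TPM and 920 to 1278 TPM. Averaged over the backgrounds, their median log2 difference between *pmk-1(D327E)* and *pmk-1(-)* was 0.09, beside 0.01 for all genes tested. The yolk protein genes summed to 14500 to 16045 TPM in the *mgDf50* double mutant with *pmk-1(-)* and 12683 to 13230 TPM in that with *pmk-1(D327E)*. With *m26* the sums were 12074 to 13498 TPM and 10816 to 13528 TPM. With intact *daf-16* they were 8960 to 13309 TPM in *pmk-1(-)* and 11568 to 12661 TPM in *pmk-1(D327E)*. The part of the intestinal and yolk genes in the *lbp-8* difference was not tested.

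**Figure D2:**
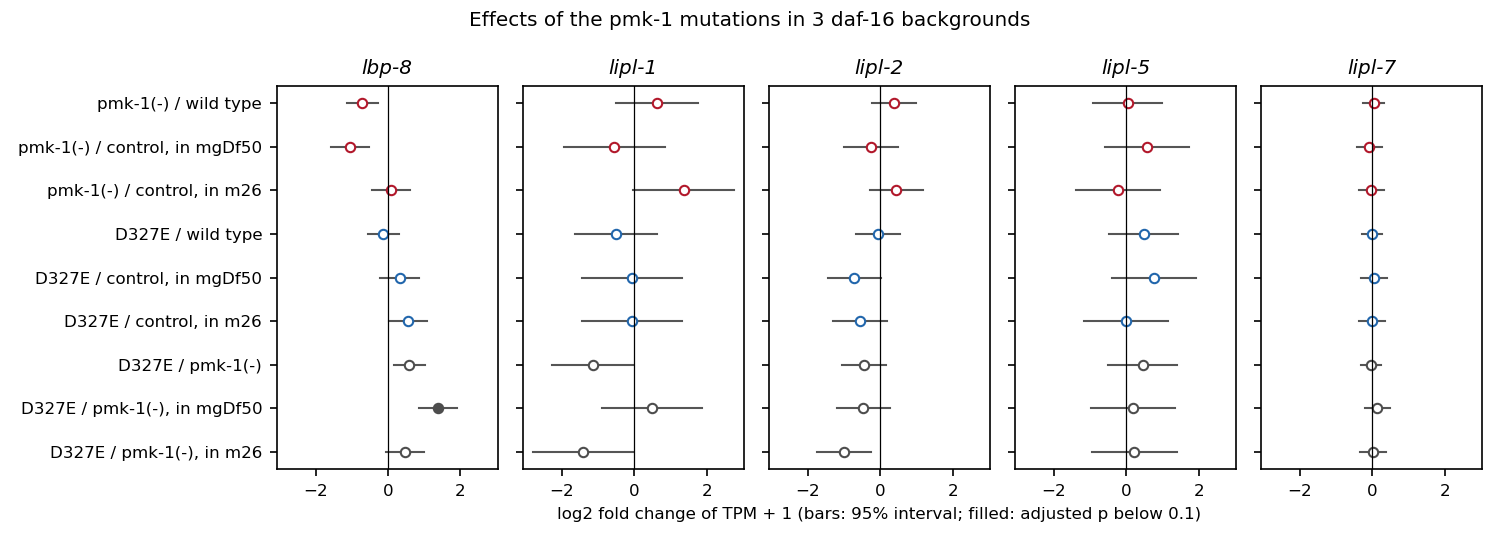
Differences in level of the 5 tested genes on the log2(TPM + 1) scale (horizontal axis) for the *pmk-1* comparisons in each *daf-16* background, named on the vertical axis, with points for the fitted differences, filled where called, and bars for 95% intervals from limma. The only filled point is *lbp-8* between the *mgDf50* double mutants, at 1.37, while the *lipl-7* points lie close to 0.

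Compared with wild type, none of the 5 genes passed the threshold in any of the 8 mutants in the fit without pairs, while 6 of 40 tests passed in a fit with a replicate block, which sets same-numbered libraries against each other. In the first fit this is 0 of 40 tests in limma, of which 8 had an unadjusted p under 0.05 (6.33% over all genes), and the lowest adjusted p was 0.258. Of all genes tested, 0.631% were called in *pmk-1(-)*, 0.0779% in *pmk-1(D327E)*, 0.366% in *daf-16(mgDf50)* and 0.195% in *daf-16(m26)*. In the double mutants with *mgDf50* the shares were 0.872% with *pmk-1(-)* and 0.257% with *pmk-1(D327E)*, and in those with *m26* they were 0.958% and 0.21%. The *lbp-8* value in *pmk-1(-)* was 0.71 below wild type (SE 0.20, limma unadjusted p = 0.00311, adjusted p = 0.293), with no overlap of the 3 and 3 libraries, as for 6.09% of all genes. With the block its adjusted p was 0.134, and 215 of all genes (1.67%) were called in place of 81. Its mean was 8.76 ± 1.18 TPM (SD, n = 3) in wild type and 4.97 ± 0.712 TPM (SD, n = 3) in *pmk-1(-)*. The calls with the block were *lipl-2* in *daf-16(mgDf50)* (0.91, limma adjusted p = 0.0403) and in the double mutants of *pmk-1(-)* with *mgDf50* (0.66, 0.0788) and with *m26* (1.04, 0.0485), and *lbp-8* in *daf-16(m26)* (-0.72, 0.0793) and in the *mgDf50* double mutants with *pmk-1(-)* (-0.72, 0.0676) and with *pmk-1(D327E)* (0.65, 0.0539). The block raised the share of all genes called to 34.7% in *daf-16(mgDf50)*, 23.2% in *daf-16(m26)*, 30.3% in the *mgDf50* double mutant with *pmk-1(-)*, 52.2% in that with *pmk-1(D327E)* and 3.22% in the *m26* double mutant with *pmk-1(-)*.

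The *daf-16* alleles lay on opposite sides of wild type in *lbp-8*, without a call between them. Both *daf-16(mgDf50)* libraries, at 11.69 and 10.3 TPM, lay above all 3 of wild type, and both *daf-16(m26)* libraries, at 4.21 and 5.403 TPM, lay below them. The fitted differences from wild type were 0.30 (SE 0.22, limma adjusted p = 0.523) and -0.75 (SE 0.22, limma adjusted p = 0.427). Between the alleles *lbp-8* differed by 1.05 (SE 0.25, limma unadjusted p = 0.000696, adjusted p = 0.218), a comparison added after the values were seen in which 0 of 5 members passed, 1 had an unadjusted p under 0.05 and 0.226% of all genes were called. The same comparison with *pmk-1(-)* and with *pmk-1(D327E)* called 0.202% and 0.109% of all genes and no member, and 2 of the 15 tests between alleles had an unadjusted p under 0.05 (2.61% over all genes). No overlap was found for 21.7% of all genes between *mgDf50* and wild type and for 36.5% between *m26* and wild type. With the mean of the sperm protein genes as a covariate the allele difference was 1.09 and passed (adjusted p = 0.0412). With *pmk-1(-)* the means of the alleles were 4.80 ± 0.908 TPM in *mgDf50* and 5.08 ± 0.0383 TPM in *m26* (SD, n = 2 each), with a difference of -0.08 on the log2(TPM + 1) scale (interval -0.60 to 0.45).

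A *pmk-1* mutation within a *daf-16* mutant gave no call without the replicate block and 1 with it. From *daf-16(mgDf50)* to its double mutant with *pmk-1(-)*, the *lbp-8* libraries went from 10.3 and 11.69 TPM to 5.45 and 4.16 TPM, without overlap (as for 14.7% of all genes), a difference of -1.05 (SE 0.25, interval -1.58 to -0.53, limma adjusted p = 0.144). With the block it passed (adjusted p = 0.0954), as did 0.989% of all genes. From *daf-16(m26)* to its double mutant it went from 4.81 ± 0.844 to 5.08 ± 0.0383 TPM (SD, n = 2 each), a difference of 0.08 (SE 0.25, interval -0.45 to 0.60). No member passed in the 4 comparisons of a double mutant with its *daf-16* single mutant (0 of 20 in limma, 2 with an unadjusted p under 0.05, against 2.34% over all genes), in which 0.405% and 0.202% of all genes were called with *mgDf50* and 0.358% and 0.0467% with *m26*. With the sperm covariate the *mgDf50* difference passed (-1.09, adjusted p = 0.031). The interaction of *pmk-1(-)* with *m26* was 0.79 for *lbp-8* (SE 0.32, limma unadjusted p = 0.0263, adjusted p = 0.894) and that with *mgDf50* was -0.34 (SE 0.32, adjusted p = 0.954). Over the 4 interactions 0 of 20 tests passed and 1 had an unadjusted p under 0.05 (1.1% over all genes), beside 0.0779%, 0.109%, 0.0156% and 0.0234% of all genes called.

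Comparing each double mutant with its *pmk-1* single mutant gave no call without the block, with 0 of 20 tests past the limma threshold and 2 with an unadjusted p under 0.05 (3.47% over all genes). Of all genes, 0.218% were called for *mgDf50* in *pmk-1(-)*, 0.109% for *mgDf50* in *pmk-1(D327E)*, 0.179% for *m26* in *pmk-1(-)* and 0.109% for *m26* in *pmk-1(D327E)*. In *pmk-1(-)* the *lbp-8* level differed by -0.04 (interval -0.52 to 0.44) for *mgDf50* and 0.04 (interval -0.45 to 0.52) for *m26*. In *pmk-1(D327E)* it was 0.75 higher with *mgDf50* (SE 0.22, limma adjusted p = 0.578, and 0.094 with the block, where 14.6% of all genes were called) and differed by -0.07 with *m26* (interval -0.55 to 0.41). In the order of the genotype means, the *mgDf50* double mutant with *pmk-1(D327E)* was highest at 14.2 ± 3.85 TPM (SD, n = 2). Neighbours in that order overlapped, apart from *daf-16(mgDf50)*, with its lower library at 10.3 TPM, over wild type, with its highest at 9.93 TPM, and the *m26* double mutant with *pmk-1(D327E)* at 7.60 TPM over that with *pmk-1(-)* at 5.08 TPM.

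Among the lipases, *lipl-2* came closest to a difference, in the direction opposite to *lbp-8*. It read 2.35, 1.94 and 3.36 TPM in wild type, 3.00, 3.70 and 4.001 TPM in *pmk-1(-)*, and 1.85, 2.35 and 2.90 TPM in *pmk-1(D327E)*. In the *mgDf50* series it read 7.11 and 3.57 TPM in the single mutant, 5.56 and 3.00 TPM with *pmk-1(-)*, and 3.75 and 1.91 TPM with *pmk-1(D327E)*. In the *m26* series it read 5.17 and 2.86 TPM in the single mutant, 6.25 and 5.11 TPM with *pmk-1(-)*, and 2.99 and 1.76 TPM with *pmk-1(D327E)*. The *D327E* libraries lay below those of *pmk-1(-)* with intact *daf-16* and with *m26*, as for 3.38% and 17.9% of all genes, and overlapped them with *mgDf50*. Averaged over the backgrounds *lipl-2* differed by -0.64 between *pmk-1(D327E)* and *pmk-1(-)* (SE 0.19, interval -1.04 to -0.24, limma unadjusted p = 0.00415, adjusted p = 0.138). It passed with the replicate block (adjusted p = 0.0162, with 5.24% of all genes called), with the sperm covariate (0.0505) and without either *daf-16(mgDf50)* library, the second *mgDf50* library with *pmk-1(-)* or the first with *pmk-1(D327E)* (0.0876 to 0.0979). In the *m26* background alone the difference was -1.005 (SE 0.35, limma adjusted p = 0.726). It passed in a fit of the *m26* double mutants alone (SE 0.22, limma adjusted p = 0.00185), which rests on 2 libraries each. The share of all genes called in that fit was not counted.

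The fasting-inducible lipase gene *lipl-1* varied most of the 5, by 21.3-fold between its lowest and highest library. It read 2.92, 2.89 and 0.71 TPM in wild type, 2.22, 7.44 and 2.65 TPM in *pmk-1(-)*, and 0.88, 2.02 and 0.60 TPM in *pmk-1(D327E)*. In the *mgDf50* series it read 9.82 and 3.41 TPM in the single mutant, 5.82 and 2.29 TPM with *pmk-1(-)*, and 8.87 and 3.46 TPM with *pmk-1(D327E)*. In the *m26* series it read 2.99 and 2.14 TPM in the single mutant, 12.8 and 4.996 TPM with *pmk-1(-)*, and 3.97 and 1.35 TPM with *pmk-1(D327E)*. With intact *daf-16* and with *m26* the libraries of *pmk-1(D327E)* were all lower than those of *pmk-1(-)*, by -1.15 (SE 0.53, limma adjusted p = 0.929) and -1.41 (SE 0.65, limma adjusted p = 1.00). The same held for 3.38% and 17.9% of all genes. In *mgDf50* the difference was 0.48 (SE 0.65) and the libraries overlapped. The largest *lipl-1* difference was 1.67 from *pmk-1(D327E)* to its *mgDf50* double mutant (SE 0.59, limma adjusted p = 0.578). Next came 1.62 from wild type to the *m26* double mutant with *pmk-1(-)* (SE 0.59, limma adjusted p = 0.567). In both the double mutant was higher without overlap, as for 27.5% and 15.3% of all genes. The pooled within-genotype SD of *lipl-1* was 0.70 on the log2(TPM + 1) scale and the SD of its genotype means was 0.67.

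The most abundant lipase gene, *lipl-5*, passed in no comparison and varied widely within genotypes. It read 153, 99.5 and 271 TPM in wild type, 176, 103 and 247 TPM in *pmk-1(-)*, and 262, 135 and 322 TPM in *pmk-1(D327E)*. In the *mgDf50* series it read 82.1 and 154 TPM in the single mutant, 137 and 208 TPM with *pmk-1(-)*, and 138 and 263 TPM with *pmk-1(D327E)*. In the *m26* series it read 203 and 248 TPM in the single mutant, 146 and 251 TPM with *pmk-1(-)*, and 176 and 284 TPM with *pmk-1(D327E)*. The pooled within-genotype SD was 0.60 on the log2(TPM + 1) scale and the SD of the genotype means 0.32, and neighbours in the order of genotypes overlapped throughout. Farther apart in that order, both *daf-16(mgDf50)* libraries lay below both of *daf-16(m26)* (-0.99, SE 0.54, limma unadjusted p = 0.0907, and 0.0407 with the block, adjusted p = 1 and 0.80), a pair of genotypes without overlap for 20.3% of all genes. The averaged difference between *pmk-1(D327E)* and *pmk-1(-)* was 0.28 (SE 0.30, interval -0.35 to 0.91). By contrast *lipl-7* was the steadiest member. Its highest library was 1.38-fold its lowest, its averaged difference between the *pmk-1* mutants was 0.03 (SE 0.09, interval -0.16 to 0.22), and neighbouring genotypes overlapped throughout.

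The levels of *lipl-1* and *lipl-5* moved in opposite directions between libraries of the same genotype. Of the 15 pairs of libraries that share a genotype, 13 had the higher *lipl-1* level in the library with the lower *lipl-5* level. In the 6 genotypes with a *daf-16* mutation, library 1 was higher than library 2 in *lipl-1* in 6 of 6 genotypes, and lower in *lipl-5* in 6 of 6. For the *mgDf50* double mutant with *pmk-1(-)* both titles say replicate 1, and the number 2 came from the sample name. Of all genes tested, 18.5% were higher in library 1 in all 6 of these genotypes and 31.5% were lower, and *lipl-2* was also higher in 6 of 6. With intact *daf-16* the library numbers did not run this way. From library 2 to library 1, *lipl-5* was 0.62 higher on the log2(TPM + 1) scale in wild type, 0.77 in *pmk-1(-)* and 0.95 in *pmk-1(D327E)*. The *lipl-1* differences there were 0.01, -1.39 and -0.68. Over the 21 libraries *lipl-1* and *lipl-5* had a Pearson's r of -0.69 and a Spearman's rho of -0.63 (permutation p adjusted over 25 relations 0.00808 and 0.0247), and r was -0.64 without the 2 libraries farthest from the median of *lipl-1*. Between deviations from the genotype means r was -0.92. Of the 12842 other genes tested, 4 were at or below that value with *lipl-5*: *T16G1.7*, *T16G1.6*, the acid sphingomyelinase gene *asm-3* and *lipl-1* itself, the first 3 named after their values were seen. The levels of *lipl-1* and *lipl-2* were positively related (r = 0.67, rho = 0.66, adjusted permutation p = 0.00808 and 0.0181), with r = 0.49 without the 2 farthest libraries and 0.50 between deviations. The permutations took the 21 libraries as independent, which libraries of 1 genotype or of 1 replicate number are not. Some of the 15 pairs also share a library. The deviations of *lipl-1* and *lipl-5* also went with those of the second axis of variation (r = 0.79 and -0.78), whose part in this was not tested.

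**Figure D3:**
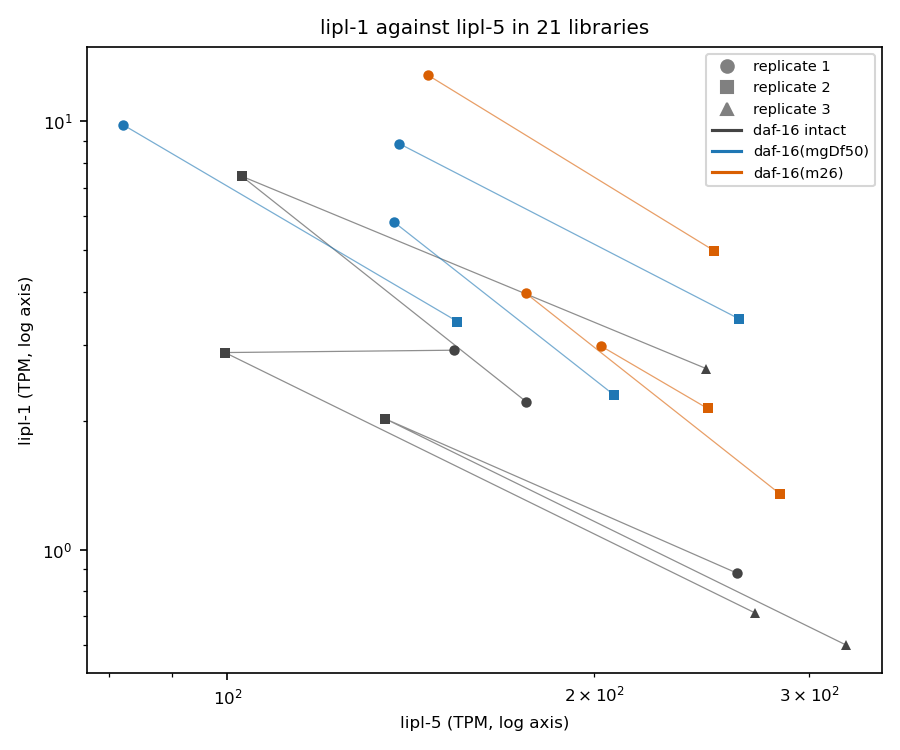
Level of *lipl-1* (vertical axis) against *lipl-5* (horizontal axis) in the 21 libraries, in TPM on log axes, with a symbol for each replicate number, a colour for the state of *daf-16* and lines joining replicate 1 to 2 and 2 to 3 within a genotype. All lines but the nearly flat one between wild type replicates 1 and 2 run down to the right, from high *lipl-1* and low *lipl-5* to the reverse.

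The remaining 3 lipases were barely detected. The fasting-inducible gene *lipl-3* ranged from 0.153 to 0.643 TPM and was highest in the *mgDf50* double mutant with *pmk-1(D327E)*, at 0.643 and 0.388 TPM, the second of which lay within the range of the other genotypes. The gene *lipl-6* ranged from 0.0674 to 0.382 TPM. The gene *lipl-4*, the partner of LBP-8 described above, ranged up to 0.163 TPM and was listed at 0 in wild type replicate 3. Its genotype means were 0.0206 ± 0.0212 TPM in wild type, 0.0368 ± 0.0143 TPM in *pmk-1(-)* and 0.0488 ± 0.0327 TPM in *pmk-1(D327E)* (SD, n = 3 each), and 0.0245 to 0.117 TPM in the *daf-16* mutants. No test was made at these levels, and a difference between genotypes was not detectable. In the annotation *lipl-3* overlaps *srw-107* on the same strand, so reads of both could be split between them, and *lipl-4* overlaps a tRNA gene and the non-coding gene *K04A8.15* on the opposite strand, which the strand-specific kit tells apart where the counting used strand.

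**Figure D4:**
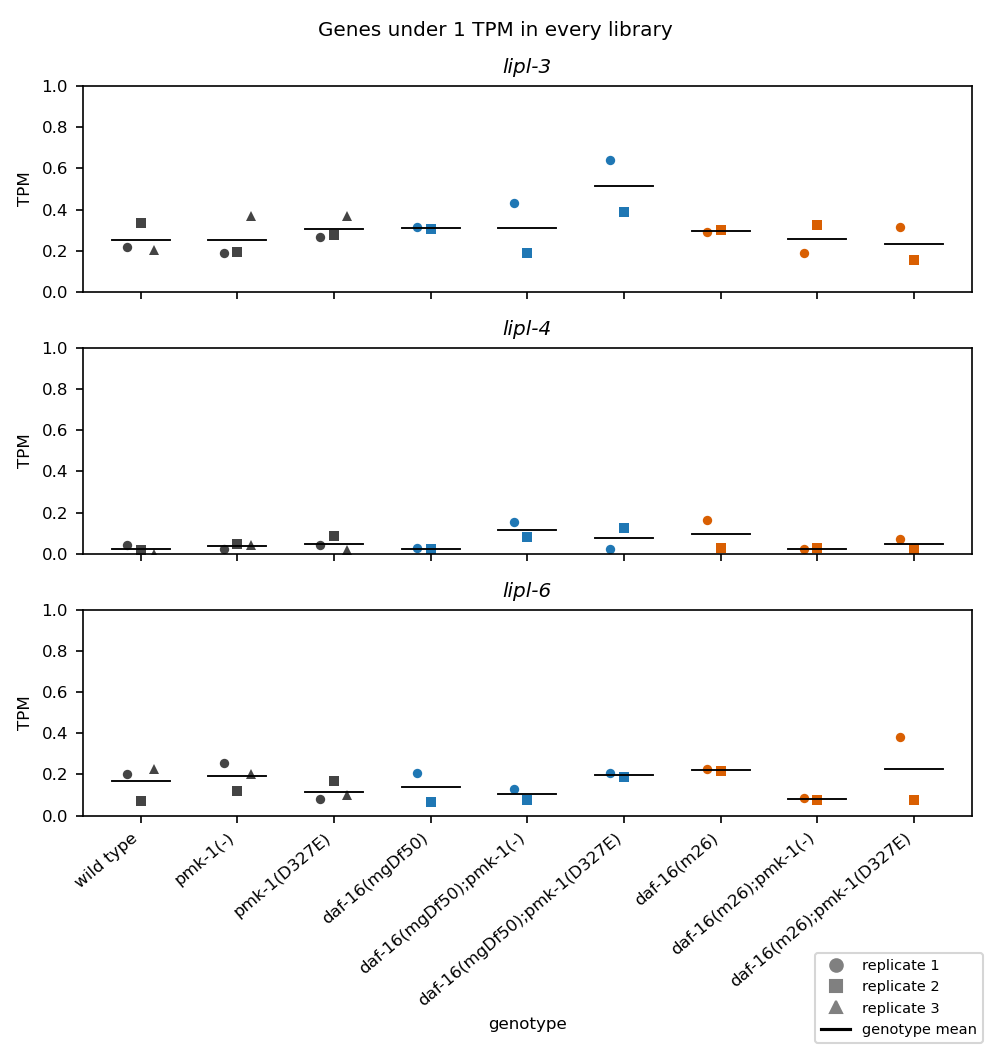
Level of *lipl-3*, *lipl-4* and *lipl-6* in each library, in TPM on the vertical axis, with the 9 genotypes on the horizontal axis, a symbol for each replicate number and a line at each genotype mean. All points are under 1 TPM and the highest is 0.643 TPM, for *lipl-3*.

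Other genes of the pathway were read from lists of whole pathways, and the 29 contrasts include those added after the values were seen. Of the 17 relatives and other lipid carriers, *lipl-8* and *far-4* were under a mean of 1 TPM. Of the 15 tested, which are the other *lbp* genes and the other *far* genes for secreted fatty acid binding proteins, 1 passed in 1 of 29 contrasts. This was *far-3*, which was 1.005 higher in *pmk-1(D327E)* than in *pmk-1(-)* averaged over the backgrounds (SE 0.27, limma adjusted p = 0.0907). None of the 5 cytosolic lipolysis genes passed in any contrast by limma, and 4 of their 145 tests had an unadjusted p under 0.05, against 3.94% over all genes and contrasts. The same count was 18 of 435 tests for the relatives, 15 of 406 for the regulators, 28 of 290 for the NHR-49 and fat oxidation genes and 10 of 232 for the lysosome membrane genes. Among the 8 lysosome membrane and transport genes 1 passed, again in that average: *nuc-1*, which encodes a lysosomal DNase and differed by -0.29 (SE 0.07, limma adjusted p = 0.0439). Of the 14 tested regulators, among them *hlh-30*, *mxl-3*, *nhr-49* and *nhr-80*, the only gene called was the mutated *daf-16* itself. In the averaged difference between *pmk-1(D327E)* and *pmk-1(-)* the median log2 difference was 0.00064 for the relatives, -0.08 for the lipolysis genes, 0.01 for the lysosome membrane genes and -0.01 for the regulators, beside 0.01 for all genes tested.

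Of 10 tested targets of NHR-49 and genes of fat oxidation, only *fat-7* passed, and the median of the list in the same average was -0.08. It encodes a stearoyl-CoA desaturase that makes oleic acid, and it ranged from 118 to 572 TPM over the libraries. Averaged over the backgrounds *fat-7* was 1.118 higher in *pmk-1(-)* than in its controls (SE 0.19, limma adjusted p = 0.00595) and differed by -1.27 between *pmk-1(D327E)* and *pmk-1(-)* (SE 0.19, limma adjusted p = 0.0012). In the *m26* background the latter difference was -1.73 (SE 0.36, limma adjusted p = 0.0473), and the double mutant with *pmk-1(-)* was 1.53 above wild type (SE 0.33, limma adjusted p = 0.0463). The direction of *fat-7* between the *pmk-1* mutants was thus opposite to that of *lbp-8*.

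By likeness of pattern, measured as Pearson's r of log2(TPM + 1) over the 21 libraries, the 3 tested genes nearest to *lbp-8* were *tag-38* (r = 0.82), *Y105C5B.15* (0.82) and *F49F1.7* (0.82). Nearest to *lipl-1* were *asm-3* (0.91), the dehydrogenase gene *dhrs-4* (0.90) and *C50B6.7* (0.86). Nearest to *lipl-5* were *C17F4.7* (0.91), *ptr-21* (0.87) and *ncr-1* (0.85), which encodes a Niemann-Pick C1 family sterol transporter. For *lipl-2* they were *cyp-36A1* (0.86), the C-type lectin gene *clec-81* (0.85) and *C50F4.8* (0.85), and for *lipl-7* they were *C18E9.5* (0.86), *islo-1* (0.84) and the fucosyltransferase gene *fut-8* (0.83). These r values describe the 21 libraries, which share genotypes and the axes of variation given above.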

How the data were processed

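Poly-A RNA of whole animals was sequenced from stranded libraries. Per the submitters' processing notes the tools were FastQC 0.11.2, STAR 2.5.3a, Picard 2.10, featureCounts of Subread and edgeR, with the genome build ce10. The authors deposited TPM values for each gene and library, which sum to 1000000 in each library and carry no depth. Their 8 comparison tables, which hold log fold changes, log CPM, likelihood ratios, p-values and false discovery rates, were not used. No column lacked a sample. The study fitted counts, and limma 3.58.1 (R 4.3.3, trend and robust) replaced that test here because the table holds TPM: log2(TPM + 1), 1 model of 9 genotypes, 12843 genes averaging 1 TPM or more, called at a Benjamini-Hochberg adjusted p under 0.1. Folds on this scale understate changes of low genes. The fit was tested on simulated data. Correlations used 100000 permutations and Python 3.11.15.

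All 8 genes were named, with the 3 tested genes most correlated with each tested one, and list genes that passed in a contrast given. The members and lists were chosen with earlier results of these data known. Same-numbered libraries of wild type and *pmk-1(-)* deviated together (correlations 0.196, 0.856 and 0.424). So did those of the 6 *daf-16* mutant genotypes among themselves (0.344 to 0.759) and with wild type (0.119 to 0.702). The numbers were taken as pairs, from the data and not the labels, only in the alternative fit with the replicate block. Both *mgDf50* libraries with *pmk-1(-)* are titled replicate 1, and their numbers were taken from the sample names in brackets. The main fit used no pairs. Those of wild type and *pmk-1(D327E)* did not all pass 0.1 (0.0174, 0.711 and 0.766). Replicate 1 of *pmk-1(D327E)* deviated in the opposite direction from replicate 1 of *pmk-1(-)* (-0.317) and of the 6 *daf-16* mutant genotypes (-0.318 to -0.157). The replicate block still gave it the effect shared by that replicate number, a limit on block results that involve *pmk-1(D327E)*. Alternatives were other pseudocounts (0.1, 0.5), filters (none, 5 TPM), a median shift of the libraries, the threshold of 0.05, a fit of the compared genotypes alone, the block on replicate numbers, a sperm gene covariate, and leaving out each library. Leaving out the second wild type and *pmk-1(-)* libraries together was added after the data were seen. Chromosomes come from WBcel235. Promoter and protein sequences were not analysed here.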

Additional observations from a re-analysis of the deposited data

Results flagged for a closer look

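In *lbp-8*, the lipid chaperone gene, the libraries of the *daf-16* alleles lay on opposite sides of wild type. Both *daf-16(mgDf50)* libraries were above all 3 wild type libraries (0.30 on the log2(TPM + 1) scale, interval -0.18 to 0.78), as for 14.5% of all genes. Both *daf-16(m26)* libraries were below them (-0.75, interval -1.23 to -0.27), as for 20.6% of all genes. Neither difference from wild type passed on its own, and the direct comparison of the alleles gave 1.05 with a limma adjusted p of 0.218. The same wild type libraries serve both differences.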

How the results depend on the processing

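None of the 24 single-gene results that were called or had an unadjusted p under 0.05 changed direction in an alternative. Of their 759 values, 732 stayed on the same side of the threshold, 16 passed only under the alternative and 11 no longer passed. The 24 were picked by p-value in these same data, so a steady direction was likely beforehand. Most were not called, and a non-call that stayed one counts among the 732. All 11 lost calls were of *lbp-8*. Between the *mgDf50* double mutants its call held in 10 of 11 alternatives and 19 of 21 settings without 1 library. In averaged *pmk-1(-)* against its controls it held in 10 of 11 and 14 of 21. With the replicate block, the calls against wild type went from 0 to 6: *lipl-2* in *daf-16(mgDf50)* (0.91) and in both double mutants with *pmk-1(-)* (0.66 with *mgDf50*, 1.04 with *m26*), and *lbp-8* in *daf-16(m26)* (-0.72) and both *mgDf50* double mutants (-0.72 with *pmk-1(-)*, 0.65 with *pmk-1(D327E)*). The block also took the calls within *daf-16* mutants from 0 to 1 (*lbp-8*, *mgDf50* with *pmk-1(-)*, adjusted p = 0.0954), those of *daf-16* loss within *pmk-1* mutants from 0 to 1 (*lbp-8*, *mgDf50* with *pmk-1(D327E)*, 0.094) and the averaged *lipl-2* difference between the *pmk-1* mutants past the threshold (0.0162). Over all 145 tests of the members the block turned the sign of 13, with unadjusted p of at least 0.643 without it and 0.478 with it, and with the block 4452 of all genes were called in *daf-16(mgDf50)* against 47 without it. The sperm gene covariate took the calls within *daf-16* mutants and those between the *daf-16* alleles from 0 to 1 each (*lbp-8* in both). The share of all genes called with that covariate was not counted. At the 0.05 threshold the calls of the averaged comparisons went from 2 to 1, losing *lbp-8* in *pmk-1(-)* against its controls. Leaving out 1 library gave 0 to 1 calls between *pmk-1(D327E)* and *pmk-1(-)* within backgrounds and 1 to 3 in the averaged comparisons. In none of these cases was the cause tested. With 2 libraries in most genotypes, small differences were not detectable. The spread between libraries did not follow the level. The pooled within-genotype SD on the log2(TPM + 1) scale was 0.15 for *lipl-7* and 0.60 for *lipl-5*, the only member above 20 TPM.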
